A study of Mus musculus with 8 samples.

Results

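pi6 and pi18 are the names used for 2 mouse piRNA loci, each made of a pair of transcription units that start close together and run apart on opposite strands. Their 4 arms, 6-qF3-28913.1 and 6-qF3-8009.1 for pi6 and 18-qE1-36451.1 and 18-qE1-1295.2 for pi18, were taken by name from tables of 208 piRNA loci, and all 4 passed the filter on low counts in each assay. The tables cover testes of adult Exd2∆ mice and of adult Exd2+/+ mice as controls. Exd2∆ is a genome-edited allele, made with Cas9 in embryos of C57BL6 background, that lacks the 3′ part of exon 2 of Exd2 and a piece of the intron after it. The labels do not say whether 1 or both copies carry the deletion, nor from how many founders the line descends. Small RNA and rRNA-depleted long RNA were each sequenced from 2 Exd2∆ and 2 Exd2+/+ samples, called biological replicates in the design text (8 libraries). The labels do not say that a small and a long RNA library with the same number came from 1 animal.

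piRNAs are small RNAs that guide PIWI proteins. In male meiosis, at the pachytene stage, most of them are cut from long single-stranded precursors that RNA polymerase II makes from intergenic loci, many of them divergent pairs driven by the transcription factor A-MYB from a shared promoter. In mice, deletion of pi6 is known to impair the ability of sperm to fertilize, and deletion of pi18 to impair the shaping of the sperm head. EXD2 carries an exonuclease domain, and the study asked whether losing part of its gene alters the making of piRNAs. Small RNA holds the mature piRNAs and long RNA their precursors, and each term stands for all RNA counted at an arm in that assay.

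The pi6 arms lie on GRCm38 chromosome 6. 6-qF3-28913.1 runs from 127796430 to 127841890 on the plus strand (45461 bp) and 6-qF3-8009.1 from 127776075 to 127796372 on the minus strand (20298 bp), with 57 bp between their 5′ ends. The pi18 arms lie on chromosome 18. 18-qE1-36451.1 runs from 67029446 to 67066460 on the minus strand (37015 bp) and 18-qE1-1295.2 from 67066587 to 67084379 on the plus strand (17793 bp), with 126 bp between them. No arm overlapped a protein-coding gene in GENCODE M21. The nearest were Prmt8, which encodes an arginine methyltransferase, 6603 bp from pi6, and Gnal, which encodes the alpha subunit of a G protein, 3837 bp from pi18. 18-qE1-1295.2 lay wholly inside AC140207.2, a lincRNA gene of 1 exon and 17803 bp, so its annotated transcript is unspliced. The other annotated genes covered small parts of the arms. AC140207.3, a lincRNA gene, covered 5.60% of 18-qE1-36451.1 and ended 6 bp from its 3′ end. On the other strand from 6-qF3-28913.1, Gm42811 covered 6.09% of that arm.

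**Figure D1:**
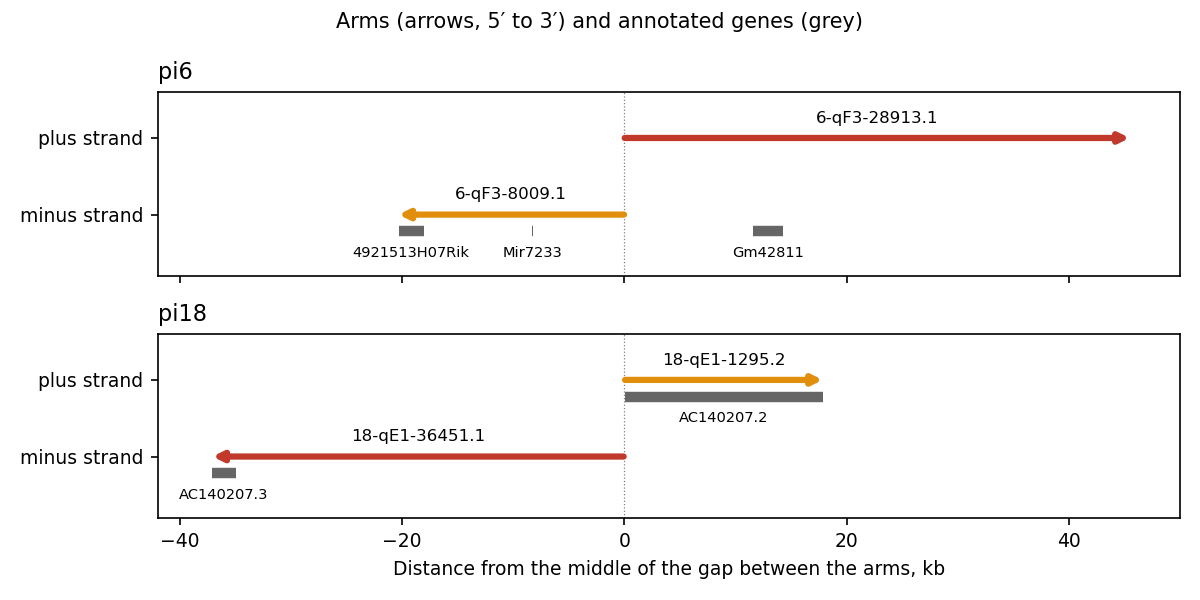
The 4 arms drawn to scale as arrows from 5′ to 3′ (red, 6-qF3-28913.1 and 18-qE1-36451.1; orange, 6-qF3-8009.1 and 18-qE1-1295.2), with the annotated genes in grey; the horizontal axis is the distance in kb from the middle of the gap between the arms. In each locus the longer arm also carried more small RNA.

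Of the annotated RNAs, 4921513H07Rik, also of type TEC, lies at the far end of the shorter pi6 arm. Its single exon covered 11.0% of 6-qF3-8009.1 on the same strand and ended 9 bp inside the 3′ end of that arm. The last 60 bases of its GENCODE transcript (chr6:127776084-127776143, minus strand) are shown because this annotated transcript ends near the arm's end. The polyadenylation hexamer is in capitals. The hexamer ends 16 bases before the end of the transcript. The same arm holds a miRNA gene, Mir7233, on the same strand (chr6:127788084-127788143). Whether its reads are among those counted at the arm is not given in the tables. Its mature form, from RefSeq (GRCm38.p6; chr6:127788084-127788105), has 22 bases and is printed with its seed, bases 2 to 8, in capitals.
4921513H07Rik 3′ end: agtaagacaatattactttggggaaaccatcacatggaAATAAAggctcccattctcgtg
mmu-miR-7233-3p: uAUUGUCUgccuuuaggucuac

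Summed over the 208 loci, estimated counts came to between 28408830 and 37660202 per small RNA library and between 960909 and 1842625 per long RNA library, and the ranges of the genotypes overlapped. All levels below are relative to these sums, so a change shared by all loci would not be seen. CPM are counts over the TMM-scaled total of the library, and shares of all counts are over the unscaled total. The TMM factor was 1.05 in Exd2∆ small RNA replicate 2 and 0.981 to 0.988 in the other small RNA libraries. The CPM of that library are thus lower beside the others than its shares are. The smallest count of any arm, that of 18-qE1-1295.2 in a long RNA library, had a counting error of 1.35%. Exd2 itself and markers of testis cell types are outside the tables and were not analysed here. In testis RNA a smaller number of producing cells and less RNA per cell cannot be told apart.

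The 4 arms were a larger part of the small RNA and a smaller part of the long RNA in Exd2∆ than in Exd2+/+. They took 13.5% and 13.3% of the small RNA counts in the Exd2∆ libraries, against 11.8% and 11.7% in the Exd2+/+ libraries. In long RNA they took 4.73% and 4.69% in Exd2∆, against 5.40% and 5.20% in Exd2+/+. The genotypes did not overlap in either assay, and these summed shares were not tested.

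The arms differed widely in small RNA per length. 18-qE1-36451.1 had 1858 ± 148 CPM per kb in Exd2∆ testes, against 1647 ± 5.59 in Exd2+/+ testes (SD, n = 2 each), which ranked 2 of 208 loci in each genotype. 6-qF3-28913.1 followed with 985 ± 63.2 CPM per kb in Exd2∆ and 942 ± 6.55 in Exd2+/+, then 6-qF3-8009.1 with 797 ± 7.83 in Exd2∆ and 672 ± 22.7 in Exd2+/+. 18-qE1-1295.2 came last with 136 ± 9.83 CPM per kb in Exd2∆ and 109 ± 1.39 in Exd2+/+. The order was the same in both genotypes, and each step in it was larger than the SDs.

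In long RNA the order was another one. 6-qF3-8009.1 led with 919 ± 58.0 CPM per kb in Exd2∆ testes, against 832 ± 25.4 in Exd2+/+ testes (SD, n = 2 each), rank 13 and 12 of 208. 18-qE1-1295.2 had 337 ± 9.96 CPM per kb in Exd2∆ and 368 ± 5.74 in Exd2+/+. 18-qE1-36451.1 had 334 ± 5.87 in Exd2∆ and 388 ± 14.3 in Exd2+/+, so that the pi18 arms were level within the SD in Exd2∆. 6-qF3-28913.1 was lowest with 245 ± 5.01 CPM per kb in Exd2∆ and 310 ± 9.95 in Exd2+/+. Lengths are genomic spans, so an arm with introns has a higher true density than given here.

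Small RNA from the shorter arm of each locus was higher in Exd2∆. 6-qF3-8009.1 had 16064 and 16288 CPM in the Exd2∆ libraries, against 13967 and 13317 CPM in the Exd2+/+ libraries. Both Exd2∆ libraries lay above both Exd2+/+ libraries, a rise of 1.19-fold (log2 fold change 0.25 ± 0.05 SE, edgeR quasi-likelihood adjusted p = 0.00302). 18-qE1-1295.2 had 2299 and 2547 CPM in Exd2∆, against 1930 and 1966 CPM in Exd2+/+. These too did not overlap, a rise of 1.24-fold (log2 fold change 0.31 ± 0.06 SE, edgeR quasi-likelihood adjusted p = 0.00184). Over all loci 33.2% were called higher, 31.7% lower and 64.9% in either direction, and the median absolute log2 fold change was 0.34, so rises of this size were common among the 208. The call of 6-qF3-8009.1 was lost without Exd2+/+ replicate 2 (0.21), a fit with 1 Exd2+/+ library.

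The longer, piRNA-rich arms were not called in small RNA. 18-qE1-36451.1 had 72657 and 64903 CPM in Exd2∆, against 60813 and 61106 CPM in Exd2+/+. Both Exd2∆ libraries were the higher, but in CPM they lay far apart from each other (log2 fold change 0.17 ± 0.07 SE, edgeR quasi-likelihood adjusted p = 0.0599). As shares of the unscaled counts they stood at 7.13% and 6.83%, against 6.01% and 5.99% in Exd2+/+. The fold change was called with RLE scaling (0.14, edgeR quasi-likelihood adjusted p = 0.0342) and with library-total scaling (0.22, adjusted p = 9.40e-07). It was not called with DESeq2 (0.14, adjusted p = 0.0979) or with edgeR's default option (0.17, quasi-likelihood adjusted p = 0.199). Leaving out a library gave 0.082 to 0.25. 6-qF3-28913.1 had 46819 and 42758 CPM in Exd2∆, against 43043 and 42622 CPM in Exd2+/+. In CPM, Exd2∆ replicate 2 fell between the Exd2+/+ libraries. As shares of the unscaled counts the genotypes did not overlap, at 4.59% and 4.50% in Exd2∆ against 4.25% and 4.18% in Exd2+/+. The log2 fold change was 0.06 ± 0.07 SE (edgeR quasi-likelihood adjusted p = 0.428). It turned to -0.011 without Exd2∆ replicate 1 and was 0.12 without Exd2∆ replicate 2. With library-total scaling it was called (0.11, edgeR quasi-likelihood adjusted p = 0.0258).

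**Figure D2:**
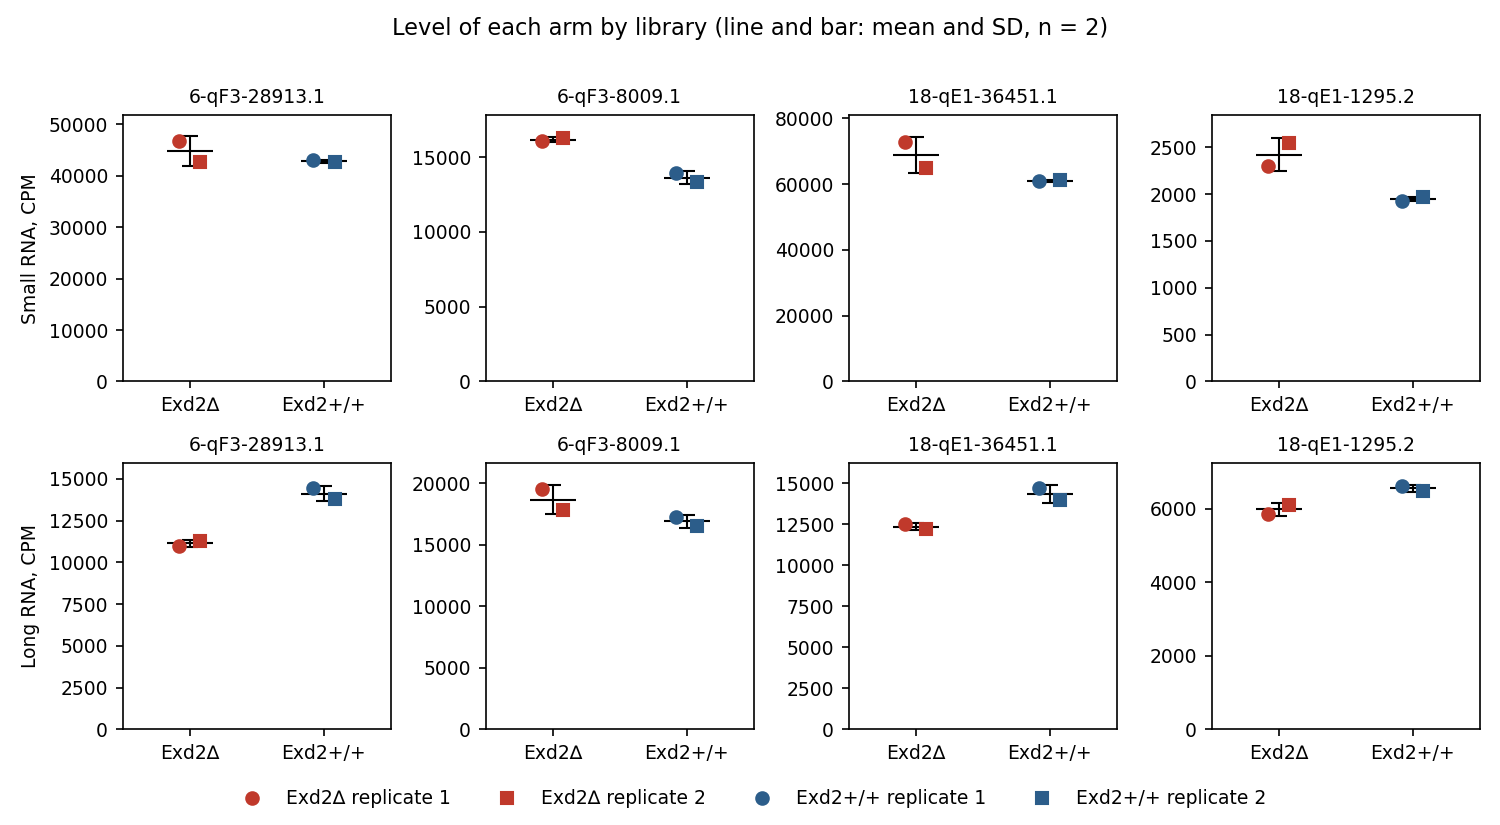
Level of each arm in CPM (vertical axes from 0, a scale of its own per panel) in Exd2∆ (red) and Exd2+/+ (blue) libraries, small RNA above and long RNA below; circles and squares are replicates 1 and 2, lines and bars the mean and SD of 2. In long RNA, 6-qF3-8009.1 was above its Exd2+/+ libraries in Exd2∆ while the other 3 arms were below theirs, and 0 of the 4 passed the test there.

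In long RNA no arm was called, against 7.69% of all loci, 6.73% higher and 0.962% lower (edgeR quasi-likelihood). The unadjusted edgeR quasi-likelihood p was 0.00454 at 6-qF3-28913.1 and 0.0300 at 18-qE1-36451.1. DESeq2 called 35 of the 208 loci, with 6-qF3-28913.1 the only arm among them. 6-qF3-28913.1 had 10974 and 11296 CPM in Exd2∆, against 14432 and 13792 CPM in Exd2+/+. The genotypes stood clearly apart, at 0.789 of the Exd2+/+ level, but the value missed the threshold (log2 fold change -0.34 ± 0.07 SE, edgeR quasi-likelihood adjusted p = 0.0534). It lies close to the limit: in the authors' deposited table the same arm has a log2 fold change of -0.34 and an adjusted p of 0.0472. DESeq2 (-0.34, adjusted p = 0.00659) and library-total scaling (-0.40, edgeR adjusted p = 0.0343) also called it. Over the 4 fits that leave out a library, the log2 fold change was between -0.37 and -0.31. Each of these fits, like every other fit here that leaves out a library, has 1 library of a genotype left in an assay. Whether such a fit called an arm or a ratio says little, in either direction.

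Its partner 6-qF3-8009.1 had 19489 and 17826 CPM in Exd2∆, against 17259 and 16531 CPM in Exd2+/+. Both Exd2∆ libraries were the higher (log2 fold change 0.14 ± 0.08 SE, edgeR quasi-likelihood adjusted p = 0.318). Its log2 fold change was 0.21 without Exd2∆ replicate 2 and 0.080 without Exd2∆ replicate 1. The pi18 arms both stood lower in Exd2∆ without passing the test on all libraries. 18-qE1-36451.1 had 12503 and 12196 CPM in Exd2∆, against 14731 and 13980 CPM in Exd2+/+ (log2 fold change -0.22 ± 0.07 SE, edgeR quasi-likelihood adjusted p = 0.134). Its log2 fold change was -0.23 without Exd2∆ replicate 1 and -0.19 without Exd2∆ replicate 2. 18-qE1-1295.2 had 5864 and 6114 CPM in Exd2∆, against 6628 and 6483 CPM in Exd2+/+ (log2 fold change -0.13 ± 0.08 SE, edgeR quasi-likelihood adjusted p = 0.325). So 3 of the 4 arms had a negative value, against 96 of the 208 loci. The median over the 4 was -0.17, against 0.01 over all loci. In the comparison list described below it was -0.14, with 18 of 22 loci negative.

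Within each genotype the arms of a locus shared their RNA very differently in the 2 assays. At pi6 the longer arm had 1.24 times the small RNA per kb of the shorter arm in Exd2∆ and 1.40 times in Exd2+/+, but 0.267 times its long RNA per kb in Exd2∆ and 0.373 times in Exd2+/+. At pi18 the arms were nearly level in long RNA per kb, with a ratio of 0.992 in Exd2∆ and 1.05 in Exd2+/+. In small RNA per kb the longer pi18 arm was ahead 13.7-fold in Exd2∆ and 15.0-fold in Exd2+/+. The arm ratio was thus higher in small than in long RNA by 2.06 ± 0.08 on the log2 scale at pi6 (limma adjusted p = 1.12e-07) and by 3.81 ± 0.08 at pi18 (limma adjusted p = 1.01e-09; SE, 4 small against 4 long RNA libraries). Exact permutation over the libraries gave p = 0.0286 for each, the smallest that 4 against 4 allows. A difference between the assays was called at 83.3% of the 12 divergent pairs in the tables, so it is not particular to pi6 and pi18. The assays differ in library chemistry as well as in the RNA they hold, and these cannot be told apart.

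Set against its own precursor, each arm gave a different amount of small RNA. The ratio of small to long RNA CPM was 5.57 in Exd2∆ and 4.25 in Exd2+/+ at 18-qE1-36451.1, the highest of the 208 loci in each genotype. It was 4.02 in Exd2∆ and 3.04 in Exd2+/+ at 6-qF3-28913.1, rank 4 and 5. The shorter arms gave less, with 0.867 in Exd2∆ and 0.807 in Exd2+/+ at 6-qF3-8009.1, and 0.405 in Exd2∆ and 0.297 in Exd2+/+ at 18-qE1-1295.2. All 4 stood above the median locus, which had 0.137 in Exd2∆ and 0.164 in Exd2+/+.

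The genotype difference itself was not the same in the 2 assays at 3 of the 4 arms. The log2 fold change in small RNA exceeded that in long RNA by 0.41 ± 0.08 at 6-qF3-28913.1 (edgeR quasi-likelihood interaction, adjusted p = 0.00365). At 18-qE1-36451.1 it did so by 0.39 ± 0.09 (adjusted p = 0.00570, edgeR) and at 18-qE1-1295.2 by 0.44 ± 0.11 (adjusted p = 0.0111, edgeR; SE). 6-qF3-8009.1, which stood higher in Exd2∆ in both assays, had 0.10 ± 0.09 (edgeR adjusted p = 0.362). Its value was 0.035 without Exd2∆ long RNA replicate 2, 0.17 without Exd2∆ long RNA replicate 1 and 0.21 with library-total scaling, none of them called (edgeR adjusted p = 0.741, 0.0980 and 0.0838). Over all loci 25.5% were called with a higher fold change in small RNA and 51.9% in either direction. The call of 18-qE1-1295.2 was lost without Exd2+/+ long RNA replicate 1 (0.43), a fit with 1 Exd2+/+ long RNA library.

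**Figure D3:**
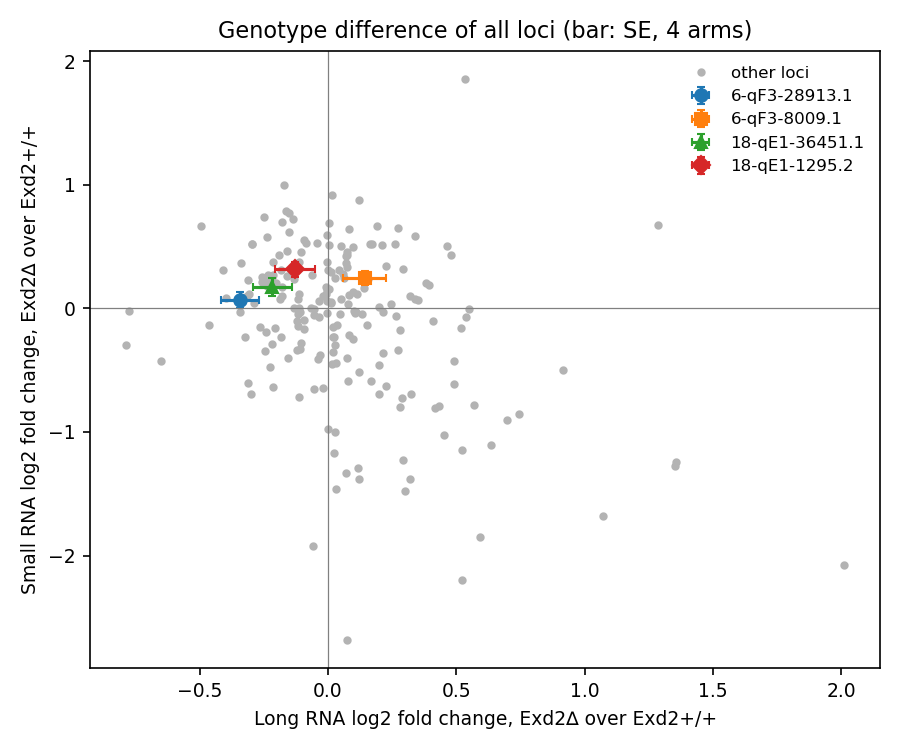
Log2 fold change of Exd2∆ over Exd2+/+ in long RNA (horizontal) and small RNA (vertical) for all 208 loci; the 4 arms are coloured, with bars for the SE. The arms lie inside the cloud of other loci, with small RNA values from 0.06 to 0.31 and long RNA values from -0.34 to 0.14.

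The balance of the pi6 arms in long RNA differed between the genotypes. 6-qF3-8009.1 held 64.0% and 61.2% of the pi6 long RNA counts in the Exd2∆ libraries, against 54.5% and 54.5% in the Exd2+/+ libraries. The ratio of 6-qF3-28913.1 to 6-qF3-8009.1 was 0.563 and 0.634 in Exd2∆, against 0.836 and 0.834 in Exd2+/+. It fell by 0.48 ± 0.07 on the log2 scale (SE; limma over the 12 pairs, adjusted p = 0.00248; 95% interval -0.66 to -0.31). Since each ratio is taken within a library, no scaling enters it, and the Exd2∆ libraries were the lower in every pairing. Leaving out a library gave -0.57 to -0.40. The difference rests on 2 libraries a genotype, for which an exact permutation test gives p = 0.333, the smallest it can reach. Of the 12 pairs, 33.3% were called in long RNA and 25% lower, and pi6 had the largest difference but 1, after the pair 15-qD3-14639.3 and pi-1700016M24Rik.2. The sum of the pi6 arms overlapped between the genotypes, at 30464 and 29122 CPM in Exd2∆ against 31690 and 30323 CPM in Exd2+/+.

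In small RNA the pi6 balance leaned the same way by less. 6-qF3-8009.1 held 25.5% and 27.6% of the pi6 small RNA counts in Exd2∆, against 24.5% and 23.8% in Exd2+/+. The arm ratio was 2.91 and 2.63 in Exd2∆ against 3.08 and 3.20 in Exd2+/+, without overlap, a log2 difference of -0.18 ± 0.07 (SE; limma adjusted p = 0.0817; 95% interval -0.39 to 0.02). Leaving out a library gave -0.26 to -0.11, the former without Exd2∆ replicate 1. The genotype difference of the ratio was 0.30 ± 0.10 higher in small than in long RNA (limma interaction, adjusted p = 0.0362, 66.7% of pairs called). That call was lost in 6 of the 8 fits that leave out a library (0.22 to 0.33, limma adjusted p = 0.0736 to 0.126), all but those without Exd2∆ small RNA replicate 2 and without Exd2∆ long RNA replicate 2.

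At pi18 the arm balance was not called in either assay. 18-qE1-1295.2 held 3.07% and 3.78% of the pi18 small RNA counts in Exd2∆, against 3.08% and 3.12% in Exd2+/+. Exd2∆ replicate 2 stood apart and replicate 1 lay beside the Exd2+/+ libraries. The ratio of 18-qE1-36451.1 to 18-qE1-1295.2 was 31.6 and 25.5 in Exd2∆ and 31.5 and 31.1 in Exd2+/+ (log2 difference -0.14 ± 0.13 SE, limma adjusted p = 0.340; 95% interval -0.53 to 0.25). It was -0.30 without Exd2∆ replicate 1 and turned to 0.014 without Exd2∆ replicate 2. In long RNA the ratio was 2.13 and 1.99 in Exd2∆, against 2.22 and 2.16 in Exd2+/+. These differed by -0.09 ± 0.06 on the log2 scale (SE; limma adjusted p = 0.277; 95% interval -0.23 to 0.06). The difference was -0.13 without Exd2∆ replicate 1 and -0.038 without Exd2∆ replicate 2. Whether pi6 and pi18 differ from each other in this was not tested. The pi18 arms together had 18367 and 18310 CPM of long RNA in Exd2∆, against 21359 and 20464 CPM in Exd2+/+, and 74956 and 67449 CPM of small RNA in Exd2∆, against 62744 and 63072 CPM in Exd2+/+. Neither sum overlapped between the genotypes, and the sums were not tested. The pi6 small RNA sum did not overlap either, at 62882 and 59046 CPM in Exd2∆ against 57010 and 55939 CPM in Exd2+/+.

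**Figure D4:**
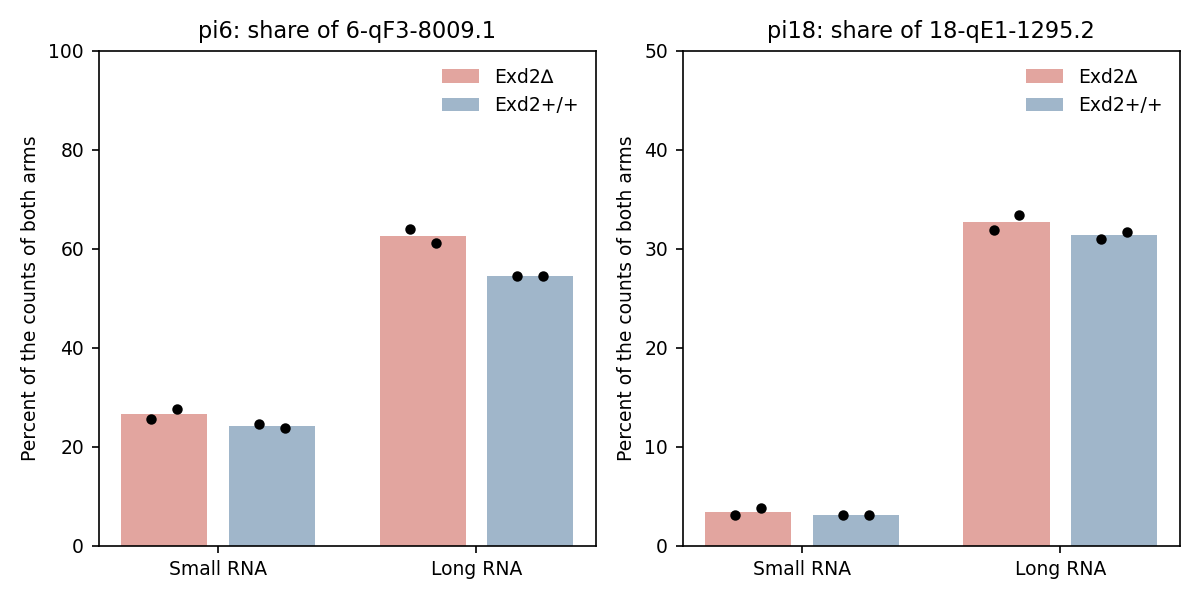
Share of the shorter arm in the counts of its locus, in percent (left, 6-qF3-8009.1 in pi6, axis to 100; right, 18-qE1-1295.2 in pi18, axis to 50); bars are means of 2 libraries, dots the libraries, red Exd2∆ and blue Exd2+/+. The pi6 long RNA bars stand furthest apart, at 62.6% in Exd2∆ and 54.5% in Exd2+/+.

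Among the 12 divergent pairs, 75% were called by limma for a genotype difference of the small RNA arm ratio (58.3% lower), and pi6 and pi18 were not. Among the 10 other pairs the largest difference was at 7-qF3-3125.5 over 7-qF3-246.1 (-1.45 ± 0.13 in small RNA, 0.11 ± 0.06 in long RNA), followed by 15-qD3-14639.3 over pi-1700016M24Rik.2 (-0.82 ± 0.04 in small RNA, -0.61 ± 0.08 in long RNA), log2 differences with SE. The smallest were at 7-qD2-24830.3 over 7-qD2-11976.3 (-0.06 ± 0.05 in small RNA) and 12-qE-23911.2 over 12-qE-7089.2 (0.10 ± 0.02). 7-qD2 was like pi6 in being called in long RNA (-0.42 ± 0.06, limma adjusted p = 0.00248) and not in small RNA (limma adjusted p = 0.321), while 9 of the 10 other pairs were called in small RNA. Ordered by absolute value, the 12 small RNA differences put pi6 at rank 7 and pi18 at rank 9.

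**Figure D5:**
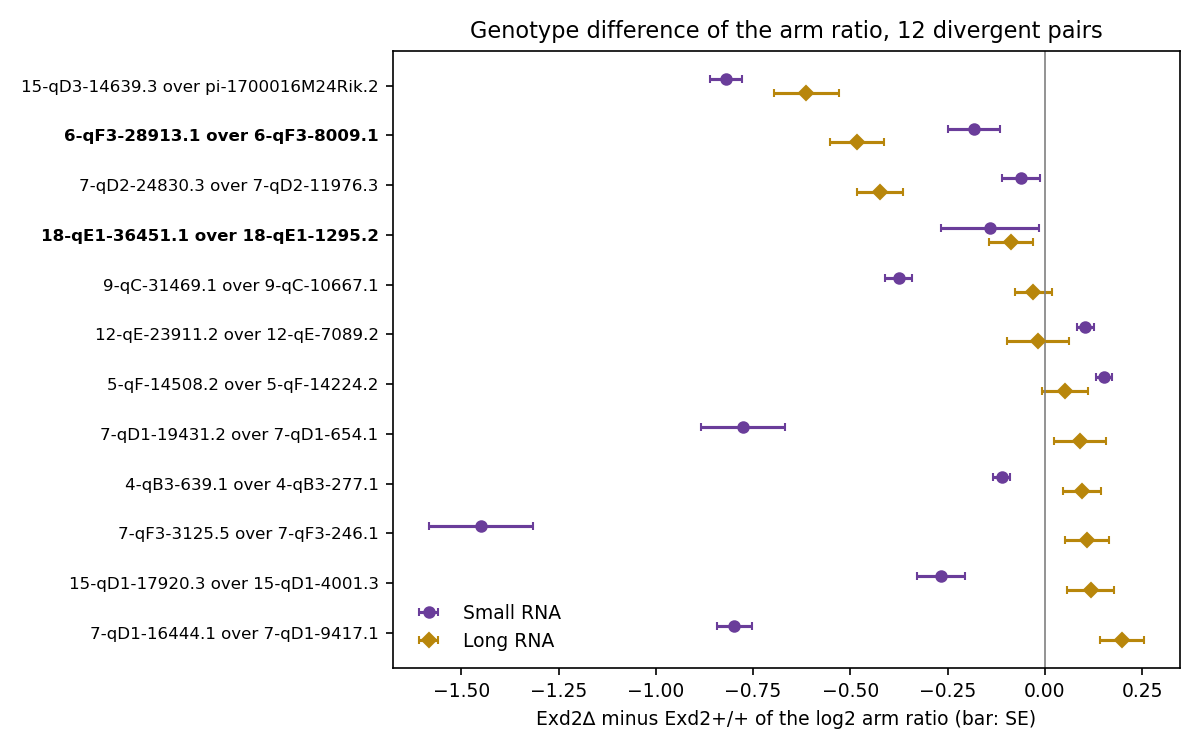
Exd2∆ minus Exd2+/+ of the log2 arm ratio for the 12 divergent pairs (circles, small RNA; diamonds, long RNA; bars, SE; pi6 and pi18 in bold), ordered by the long RNA value. pi6 is at -0.18 in small and -0.48 in long RNA, pi18 at -0.14 in small and -0.09 in long RNA.

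A comparison list of other loci gives the setting for these values. It held the arms of the other divergent pairs and the loci in bands 2-qE1, 9-qC and 17-qA3.3, 22 in all. In small RNA 6 of the 22 were called higher and 7 lower (median log2 fold change -0.02), and of the 4 pi6 and pi18 arms 2 were called higher and 0 lower (median 0.21). Over all loci the shares were 33.2% higher and 31.7% lower (median 0.036), so that these counts do not set the 4 arms apart. In long RNA 1 was called higher (4-qB3-639.1, named after its value was seen) and 0 lower. Over all 208 loci 96 had a negative value (median 0.01), against 18 of the 22 (median -0.14). The 4 with the most small RNA were 2-qE1-35981.2, the precursor of pi2 (-0.05 ± 0.08 in small RNA, -0.12 ± 0.09 in long RNA), 9-qC-31469.1 (-0.15 ± 0.07 and -0.26 ± 0.08), 12-qE-23911.2 (0.20 ± 0.07 and -0.20 ± 0.08) and 17-qA3.3-26735.1 (-0.47 ± 0.06 and -0.23 ± 0.09), log2 fold changes with SE. Of these, 12-qE-23911.2 and 17-qA3.3-26735.1 were called in small RNA (edgeR adjusted p = 0.0323 and 1.02e-04).

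Each arm had close company in its pattern over the 8 libraries, measured as the Euclidean distance of log2 CPM after centring within an assay. The loci nearest to 18-qE1-36451.1 were 9-qC-10667.1 (distance 0.0595), 12-qE-23911.2 (0.0726) and 7-qB5-6255.1 (0.111), against a median of 0.543. Nearest to 6-qF3-28913.1 were 5-qG3-23659.2 (0.0924), 7-qD2-24830.3 (0.143) and the longer pi18 arm, 18-qE1-36451.1 (0.177), followed by 9-qA5.3-24188.1 (0.181). 5-qG3-23659.2 was called lower in long RNA (-0.40, edgeR adjusted p = 0.0446), where 6-qF3-28913.1 just missed. Nearest to 6-qF3-8009.1 were 6-qD1-2831.2 (0.133), 5-qG2-950.1 (0.180) and pi-Tacc1.2 (0.189), and to 18-qE1-1295.2 9-qA1-178.2 (0.112), 3-qA3-2052.2 (0.167) and 17-qE1.1-7037.1 (0.175). The divergent partner was not the nearest locus of any arm. It ranked 88 of 207 for 6-qF3-28913.1 and 106 for 6-qF3-8009.1 (distance 0.543), and 27 and 33 for the pi18 arms (distance 0.285).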

How the data were processed

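Small RNA and rRNA-depleted long RNA of testis were sequenced from 2 Exd2∆ and 2 Exd2+/+ samples each. The authors deposited, per assay, estimated counts for 208 piRNA loci, not scaled to library size, with their own log2 fold change and adjusted p-value from edgeR, per the file headers. cutadapt, STAR, edgeR and the GRCm38 build are named in the submitters' processing notes. Which program counted the reads, whether it used strand and how it treated reads with several alignments is, like all versions, not given in the sources used here. Strand is marked by the long RNA kit, per the labels' protocols. Columns were matched to samples by the codes in the labels.

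Estimated counts were rounded and tested with edgeR 4.0.16 in R 4.3.3 (filterByExpr, TMM within an assay, glmQLFit with its legacy option, genotype as the only term), with Benjamini-Hochberg adjustment over 208 loci and calls at an adjusted p below 0.05. The SE is the absolute log2 fold change over the square root of F. The assay-by-genotype interaction used all 8 libraries. Divergent pairs were loci of opposite strands whose 5′ ends face apart within 5000 bp, or overlap by at most 1000 bp, which gave 12 pairs. Their log2 arm ratios (pseudocount 0.5) were tested with limma 3.58.1 and adjusted over the 12, with the arm of larger name number on top. The fits were also run on simulated data, and no result here rests on that. Alternatives were RLE and library-total scaling, other filters, DESeq2 1.42.0, edgeR's default option, a pseudocount of 10, a replicate block, exact permutation and leaving out each library. Named loci were the 4 arms, the 3 loci most alike each, the 4 richest of the comparison list and the 2 largest and 2 smallest differences among the other pairs. The members, lists and the legacy option were chosen with earlier results of these data known. The planned description of the promoters was not made, as no genome sequence was used here.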

Additional observations from a re-analysis of the deposited data

Results flagged for a closer look

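4 results were set apart because the genotype difference was not the same in small and long RNA by a test of that difference. They are the small minus long RNA log2 fold change of 6-qF3-28913.1 (0.41), 18-qE1-36451.1 (0.39) and 18-qE1-1295.2 (0.44), and the genotype difference of the pi6 arm ratio, small minus long RNA (0.30). The result for the pi6 arm ratio kept its call in 3 of 10 alternatives and lost it in 7. With 2 libraries in a group, none of the 4 results could be examined for an outlying sample.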

How the results depend on the processing

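Directions and calls of most results held under most alternatives. Exceptions were the interaction of the pi6 arm ratio, which lost its call in 7 of 10, and the number of long RNA calls, which moved by more than 1.5-fold in 6 of 11. The values that changed are grouped here (log2 values, with the adjusted p of edgeR or limma). In small RNA, 6-qF3-28913.1 was called with library-total scaling (0.11) and ranged from -0.011 to 0.12 when a library was left out, the negative value being that without Exd2∆ replicate 1. 18-qE1-36451.1 was called with RLE (0.14) and library-total scaling (0.22) and ranged from 0.082 to 0.25. It was not called with DESeq2 (0.14), edgeR's default option (0.17) or the replicate block (0.17). 6-qF3-8009.1 ranged from 0.21 to 0.28. In long RNA, 6-qF3-28913.1 was called with library-total scaling (-0.40), DESeq2 (-0.34) and the replicate block (-0.34, adjusted p = 0.0449), and ranged from -0.37 to -0.31. 18-qE1-36451.1 ranged from -0.25 to -0.18 and 6-qF3-8009.1 from 0.080 to 0.21. The number of long RNA calls over all loci was 16, against 35 with DESeq2 and 38 with the replicate block, and ranged from 0 to 105 when a library was left out. The 0 arose without either Exd2+/+ replicate (17 and 20 loci at an unadjusted p under 0.05 by edgeR, 8 and 9 called by DESeq2), the 105 without Exd2∆ replicate 2. Interaction values of 18-qE1-1295.2 ranged from 0.36 to 0.51. The pi6 arm ratio in long RNA kept its value of -0.48 in the exact permutation test, which cannot pass. In small RNA the pi6 ratio ranged from -0.26 to -0.11, and the pi18 ratio from -0.30 to 0.014, with the positive value without Exd2∆ replicate 2. The interaction of the pi6 ratio was 0.30 with the replicate block (adjusted p = 0.0613) and ranged from 0.22 to 0.39, that of pi18 from -0.21 to 0.10, again positive without Exd2∆ small RNA replicate 2. Small RNA arm ratio calls fell to 5 of 12 pairs with the replicate block, against 9. The causes were not tested. The labels do not say that replicate numbers pair the samples, and same-numbered libraries deviated together with a correlation of 0.0399 in small and 0.343 in long RNA. A limit of 1000 bp gave the same 12 pairs. The counting error of an arm, which covers counting only, was at most 1.35%.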
